A study of Mus musculus with 3 samples.

Results

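The transcripts of the mitochondrial genome were taken as all genes whose symbol begins with mt-, which gave 37 of the 55450 annotated genes held by both kinds of deposited table. All 37 lie on chromosome M and have 1 exon each. They are 13 mRNA genes, 2 rRNA genes and 22 tRNA genes, and all 37 were found in the tables of every library. Chromatin-fraction RNA, depleted of ribosomal RNA, came from macrophages grown from bone marrow of C57BL/6J mice and exposed to 100 ng/ml Lipid A (an agonist of Toll-like receptor 4) for 40 min. The 3 biological replicates, numbered as in the labels, form 1 group and started from different amounts of RNA, 1 µg in replicate 1, 250 ng in replicate 2 and 500 ng in replicate 3. The labels list a biosample for each but the same donor entry for all, so p-values measure only the spread between these libraries. Age and sex of the animals are given as not collected. No untreated control and no other fraction was analysed here, and the questions were how the mRNA, rRNA and tRNA genes compare within a library, between the replicates, and between the alignment-based and the alignment-free table made from each library.

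The mitochondrial genome is a small circle present in many copies per cell. Its strands are transcribed as long precursors by a dedicated polymerase, and the tRNAs that lie between most of the other genes are cut out to release the mRNAs and rRNAs. The mRNAs encode core subunits of respiratory complexes I, III and IV and of ATP synthase. In cells these RNAs reside in mitochondria, not in the nucleus, and stretches of mitochondrial DNA have also been inserted into nuclear chromosomes, where they are annotated as pseudogenes.

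The alignment-based tables summed to 12699813, 18280033 and 18087091 expected counts in replicates 1, 2 and 3, and the alignment-free tables to 19789390, 31596771 and 30505141 estimated counts. The alignment-free total was 1.56, 1.73 and 1.69 times the other. All 10 macrophage markers had a mean TPM (a transcript level scaled for length and depth) of at least 1, with summed TPM of 755 to 854 per library in the alignment-based table and 801 to 1119 in the alignment-free table. In the alignment-based table markers of T cells, B cells, neutrophils, NK cells, erythroid cells, fibroblasts and endothelial cells summed to at most 4.37 per list, and both NK cell markers were at 0 in every library. Alignment-free sums were higher for T cell markers, at 24.0, 19.4 and 24.2, and for endothelial markers, at 10.2, 5.96 and 10.2, and at most 4.72 for any other of these lists. Their part in the results was not tested.

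Of the mitochondrial RNA classes, mRNA held most of the counts in every library, rRNA far fewer and tRNA next to none. Its share was 0.0790%, 0.0409% and 0.0311% in replicates 1, 2 and 3 (exact Clopper-Pearson 95% intervals 0.0774 to 0.0805, 0.0400 to 0.0419 and 0.0303 to 0.0319), with a mean of 0.0503% ± 0.0253 (SD, n = 3). These intervals do not overlap, and they cover counting error only. Whether libraries hold fewer mitochondria or less RNA in each cannot be told apart. The rRNA genes held 0.00374%, 0.00289% and 0.00254%, a range in which replicate 1 was again highest. The tRNA genes held 0 counts in all 3 libraries, for which the upper limit, set at 3 counts, is 2.36e-05%, 1.64e-05% and 1.66e-05% of the total. In the alignment-free tables mRNA held 0.0666%, 0.0339% and 0.0231%, rRNA 0.00342%, 0.00333% and 0.00288%, and tRNA 25, 20 and 24 counts. The mRNA share was lower in the alignment-free table in 3 of 3 libraries, for which an exact two-sided sign-flip permutation test over 3 libraries gave p = 0.25, the smallest it can reach. Reads given to near-identical nuclear copies, described below, are not in these shares. With them the alignment-based mRNA share was 0.102%, 0.0528% and 0.0381%, and the alignment-free share 0.0724%, 0.0367% and 0.0272%.

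The tables divided reads differently between mitochondrial mRNAs and their nuclear copies. A block of 7 annotated unprocessed pseudogenes on the minus strand of chromosome 1 (24611535 to 24616197, mm10) repeats 7 mRNAs in their mitochondrial order, at identities of 99.7% to 100%. In the order of the mitochondrial genome these pairs are mt-Co1 with Gm29216, mt-Co2 with Gm28661, mt-Atp6 with Gm10925, mt-Co3 with Gm28437, mt-Nd3 with Gm28438, mt-Nd4l with Gm10222 and mt-Nd4 with Gm28439. Of these, 5 pairs are identical wherever they align and 2 differ by 1 base. The following sequences, from the GENCODE M21 transcripts, show how few bases tell 4 of the pairs apart at their 3′ ends, with capitals for bases that the mitochondrial transcript has and the annotated pseudogene lacks.
mt-Co2, chrM:7654-7696, plus strand: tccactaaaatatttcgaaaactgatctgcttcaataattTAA
Gm28661, chr1:24614885-24614924, minus strand: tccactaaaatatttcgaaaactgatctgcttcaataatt
mt-Co3, chrM:9350-9390, plus strand: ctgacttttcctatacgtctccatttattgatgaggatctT
Gm28437, chr1:24613189-24613228, minus strand: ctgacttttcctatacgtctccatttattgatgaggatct
mt-Atp6, chrM:8565-8607, plus strand: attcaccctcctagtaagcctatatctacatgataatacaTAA
Gm10925, chr1:24613974-24614013, minus strand: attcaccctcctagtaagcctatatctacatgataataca
mt-Nd4l, chrM:10131-10173, plus strand: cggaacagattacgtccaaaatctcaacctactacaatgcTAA
Gm10222, chr1:24612407-24612446, minus strand: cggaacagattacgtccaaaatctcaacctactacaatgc

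The pairs mt-Nd3 with Gm28438 and mt-Co1 with Gm29216 also differ by single bases. Positions are counted from 1 at the 5′ end of the mitochondrial transcript, with its base first. The differences are T3C between mt-Nd3 and Gm28438 and A1066T between mt-Co1 and Gm29216, and they stand in capitals below. At its 3′ end, not shown, mt-Nd3 also has a TAA that the annotated Gm28438 lacks.
mt-Nd3, chrM:9459-9486, plus strand: atTaacctgtacactgttatcttcatta
Gm28438, chr1:24613092-24613119, minus strand: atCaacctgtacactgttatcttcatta
mt-Co1, chrM:6390-6418, plus strand: ggaAttgttttatccaactcatcccttga
Gm29216, chr1:24616160-24616188, minus strand: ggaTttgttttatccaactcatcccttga

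The extent of shared sequence was measured as the share of all 31-base windows of a member that occur exactly, on either strand, in an annotated nuclear transcript. For mt-Co2, a complex IV subunit, it was 654 of 654 windows, so no window was its own. The share was 753 of 754 for mt-Co3, 648 of 651 for mt-Atp6, 264 of 267 for mt-Nd4l and 312 of 318 for mt-Nd3. For mt-Nd4, whose pseudogene covers 876 of its 1378 bases, it was 62.8%. For mt-Co1 it was 63.9%, in which windows from any nuclear transcript count, while Gm29216 aligns to only 483 of its 1545 bases. All other mRNAs lay between 0% (mt-Nd1) and 16.8% (mt-Nd5), mt-Rnr2 at 2.71% and mt-Rnr1 at 0%. The read length is not given in the sources used here, so a longer read could tell apart more of each gene than these windows.

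In 5 pairs nearly all windows are shared. The expected counts of the alignment-based table gave all or nearly all reads of mt-Co2, mt-Co3 and mt-Nd3 to the pseudogene in every library. They divided those of mt-Atp6 and mt-Nd4l differently from library to library. mt-Co2 (ENSMUSG00000064354.1, chromosome M, 7013 to 7696) had 0 counts in all 3 libraries and Gm28661 had 1066, 730 and 460. In the alignment-free table mt-Co2 had 480, 330 and 0.394 and Gm28661 690, 548 and 574. The member's percentage of the pair was thus 0 in each library in one table and 41.1%, 37.6% and 0.0686% in the other, where replicate 3 stood apart. mt-Co3 (ENSMUSG00000064358.1, 8607 to 9390), another complex IV subunit, had 11.7, 2.08 and 2.23 counts against 1296, 963 and 602 for Gm28437. In the alignment-free table it had 1153, 857 and 80.3 against 241, 255 and 614, or 82.7%, 77.1% and 11.6% of the pair. For both pairs the alignment-free split turned towards the pseudogene in replicate 3.

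For the complex I subunit mt-Nd3 (ENSMUSG00000064360.1, 9459 to 9806) the expected counts and the alignment-free counts were divided in opposite ways. It had an expected count of 0 in every library of the alignment-based table, with 128, 79 and 46 in Gm28438. The alignment-free table gave it 139, 91 and 53, with 0 in Gm28438. The other complex I subunit of this kind, mt-Nd4l (ENSMUSG00000065947.3, 9877 to 10173), had 0, 75 and 34.85 counts against 86, 0 and 24.15 for Gm10222. Its alignment-free counts were 118, 104 and 70, with 0 for Gm10222. The expected counts therefore put all of this pair's reads in the pseudogene in replicate 1 and all in the member in replicate 2.

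mt-Atp6 (ENSMUSG00000064357.1, 7927 to 8607), a subunit of the proton channel of ATP synthase, was divided between both genes in the alignment-based table. It had 179, 184 and 176 alignment-based counts with 325, 242 and 107 in Gm10925, or 35.6%, 43.1% and 62.2% of the pair. The alignment-free table gave it 540, 508 and 348, with at most 4.99 in Gm10925. mt-Co1 and mt-Nd4, which share fewer windows with nuclear transcripts, held most counts of their pairs in both tables. In the alignment-based table mt-Co1 had 6575, 4312 and 3041 counts, at least 96.5% of its pair in every library, and mt-Nd4 had 608, 540 and 379, at least 93.4%. The alignment-free table gave mt-Co1 at least 97.3% of its pair, and mt-Nd4 100%, 97.1% and 84.8%.

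The deposited standard deviation of each count, which the alignment-based table gives for the division of reads, was highest for 3 of these genes. It was 272, 167 and 124 counts for mt-Co2, 334, 272 and 159 for mt-Co3, and 145, 108 and 76.2 for mt-Atp6. For mt-Nd1, mt-Nd5, mt-Nd6, mt-Cytb, mt-Atp8 and both rRNA genes it was 0. The posterior mean count that the table lists beside this deviation was 263, 209 and 155 for mt-Co2 and 672, 401 and 337 for mt-Co3. It was 257, 230 and 138 for mt-Atp6. For mt-Nd3 it was 24.5, 24.4 and 17.7, with deviations of 20.2, 20.1 and 13.0. An expected count of 0 for mt-Co2, with a deviation of over 100 counts, is thus not a measured absence, nor is that for mt-Nd3. In all, 17 annotated nuclear copies with at least 90% identity held 21.9%, 21.3% and 17.2% of the reads given to members and copies together in the alignment-based table and 7.79%, 7.32% and 14.2% in the alignment-free table.

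**Figure D1:**
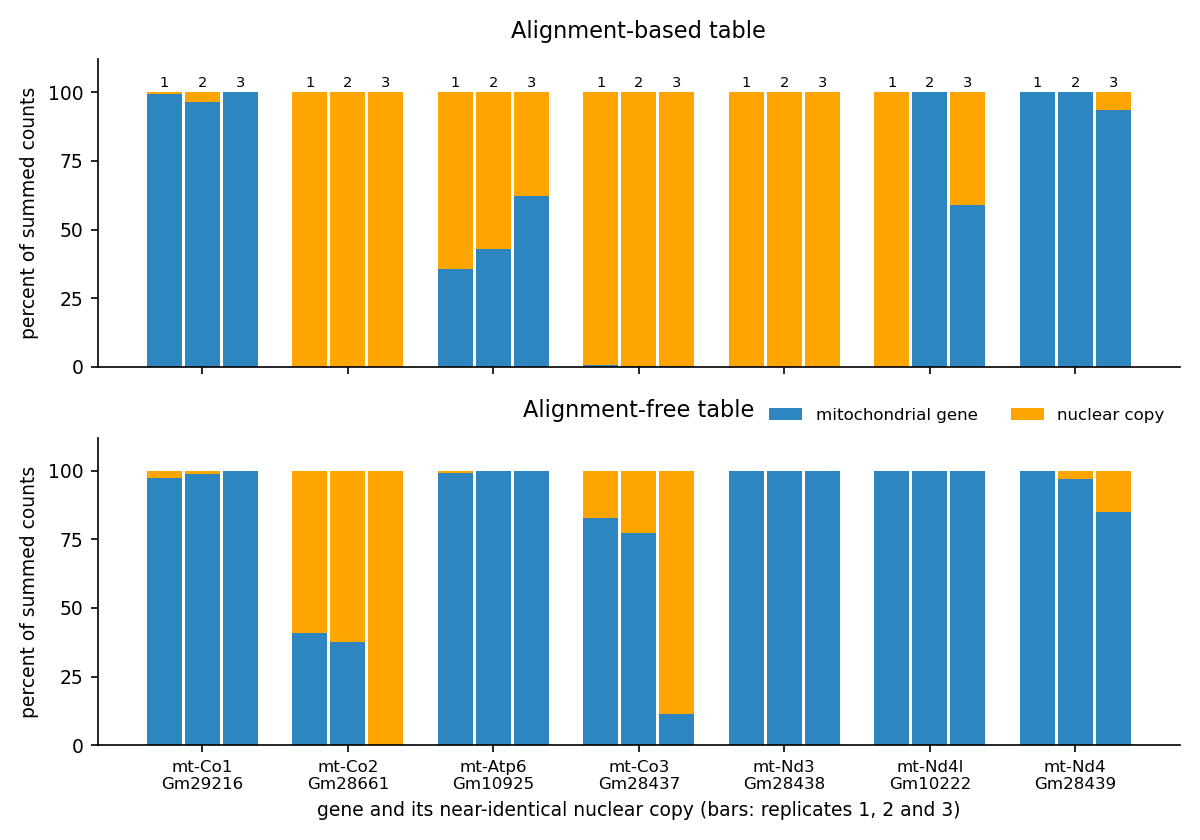
Percent of the summed counts of each pair (vertical axis) that the alignment-based table (upper panel) and the alignment-free table (lower panel) gave to the mitochondrial gene (blue) and to its near-identical nuclear copy (orange), with 1 bar per replicate. mt-Co2 and mt-Nd3 hold 0 in every alignment-based library, while mt-Nd3 holds 100% and mt-Co2 at most 41.1% in the alignment-free table.

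A member with an expected count of 0 in the alignment-based table was set against a floor of 3 counts per library. Counts were scaled to the library total. The floor covers counting error only, not the division of reads within a pair, so the folds are no bounds on the true difference. In the alignment-free table mt-Co2 lay 103-fold above the floor in replicate 1 and 63.6-fold in replicate 2. In replicate 3 the expected and estimated counts of mt-Co2 both lay under it. mt-Nd3 lay 29.7-fold, 17.5-fold and 10.5-fold above the floor in replicates 1, 2 and 3, and mt-Nd4l 25.2-fold in replicate 1. The alignment-based posterior means lay above the floor too, at 263 and 209 for mt-Co2 in replicates 1 and 2. They were 24.5, 24.4 and 17.7 for mt-Nd3 in replicates 1, 2 and 3, and 25.4 for mt-Nd4l in replicate 1.

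Differences between the tables that repeat over the libraries were tested with edgeR's quasi-likelihood test with the library as a block, and called at a Benjamini-Hochberg adjusted p under 0.05 and a fold of at least 2. Over all 20964 genes tested 40.4% were called higher in the alignment-free table and 0.463% lower, and the median of all genes was a log2 difference of 0.30. Of the 14 members tested (12 mRNAs and 2 rRNAs) 2 were called higher and 0 lower. The called members were mt-Co3 and mt-Nd3, both higher in 3 of 3 libraries. Both passed the filter on low counts only through the alignment-free table, where they are high, so their calls are a description and support nothing. The fitted log2 difference of mt-Co3, 6.07, stands on alignment-based counts under the floor of 3 in replicates 2 and 3, and ran from 4.26 (limma) to 6.89 (without replicate 1) with members taken alone. The 22 tRNA genes and mt-Co2 did not pass the filter, so the test says nothing of them.

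The mRNAs without an annotated near-identical copy had negative differences of much the same size. Only annotated transcripts were searched, so nuclear sequence between the annotated pseudogenes was not covered. The log2 difference was -0.76 ± 0.09 for mt-Nd1, -0.75 for mt-Nd5, -0.72 for mt-Nd6 and -0.77 for mt-Cytb, each past the adjusted p threshold but within the 2-fold limit. Over the 6 mRNAs without such a copy the median was -0.75, which is 1.05 log2 units below the median of all genes. Total count scaling moved the median of all genes up by 0.22, and these mRNAs then had a median of -0.52. The median of all genes also moved with the count filter, to 0.077 at a minimum count of 50 and 0.86 without a filter. The size of the gap of 1.05 therefore depends on the filter. For the rRNAs the difference was -0.51 ± 0.10 for mt-Rnr1 (edgeR adjusted p = 1.5e-06) and 0.12 ± 0.09 for mt-Rnr2 (adjusted p = 0.21), which did not pass the test.

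When each member was summed with its near-identical pseudogene, an alternative chosen after the data were seen, all 13 mRNAs were tested and none was called in either direction, beside 40.4% of 20959 genes called higher and 0.444% lower. Their log2 differences then ran from -0.79 (mt-Co3) to -0.55 (mt-Nd4l), with a median of -0.74. The 4 members that had been above 0, mt-Co3, mt-Nd3, mt-Atp6 and mt-Nd4l, all turned to the sign of the other mRNAs. Over the 15 mRNA and rRNA genes, which are not independent replicates, the tables' log2 levels per kilobase had a Pearson r of 0.26, 0.30 and 0.82 for the members alone and 0.99, 0.98 and 0.97 after summing. The points of each correlation share a library and its reads.

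**Figure D2:**
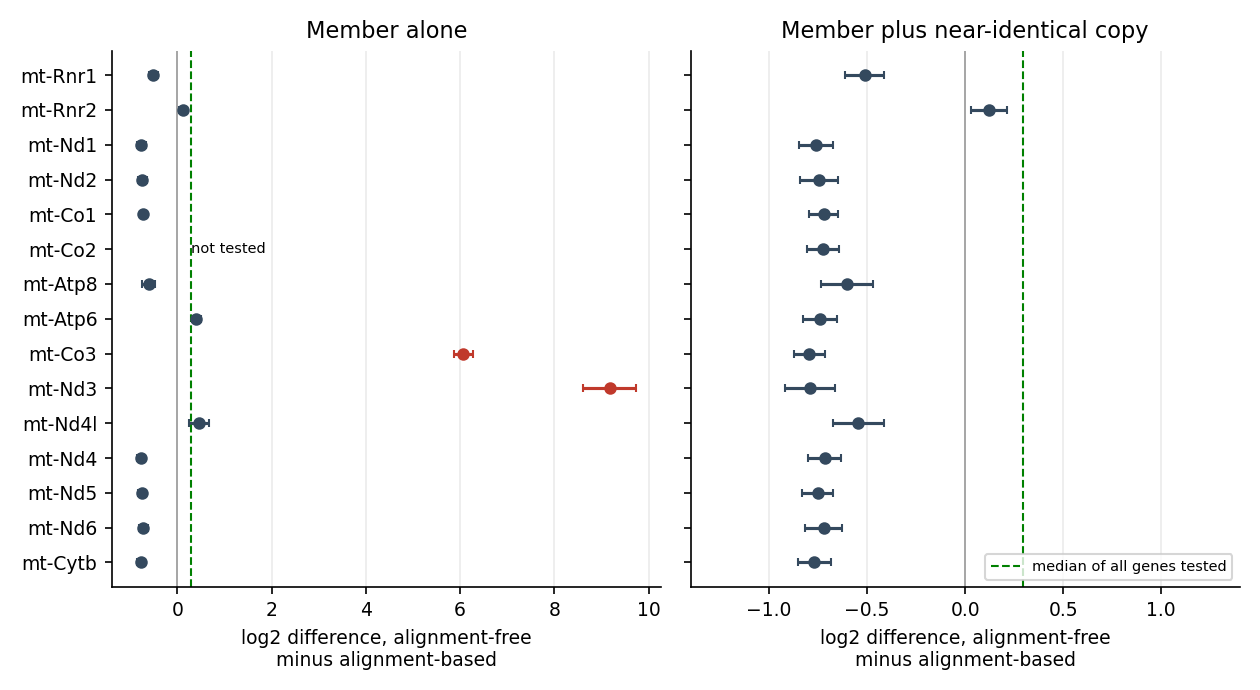
Log2 difference between the alignment-free and the alignment-based table (horizontal axes, on different scales; points with SE from edgeR) for mRNA and rRNA genes, alone (left, called genes in red) and summed with their near-identical copy (right), with the median of all genes tested as a dashed line at 0.30. Summed, the mRNAs lie between -0.79 and -0.55, while mt-Rnr2 lies at 0.12.

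The raw counts show the same pattern without any scaling. For the pairs and single mRNAs together, the alignment-free count was 1.07 to 1.37 times the alignment-based count in replicate 1, 1.15 to 1.39 in replicate 2 and 1.14 to 1.38 in replicate 3. The medians of 1.10, 1.20 and 1.19 lie below the ratios of the library totals, 1.56, 1.73 and 1.69. mt-Rnr2 went beyond those totals, at 1.83, 2.18 and 2.29, and mt-Rnr1 lay at 1.17, 1.57 and 1.44.

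The levels of the members were then compared as CPM (counts scaled to a common library total) per kilobase of annotated length (alignment-based, each mRNA summed with its near-identical pseudogene), since the split within a pair differed between the tables. Reads from the pseudogenes themselves, if any, are part of these sums. The complex IV mRNAs stood highest. mt-Co1 (ENSMUSG00000064351.1, 5328 to 6872), the catalytic core of cytochrome c oxidase, lay at 337, 158 and 109 in replicates 1, 2 and 3, a mean of 202 ± 120 (SD, n = 3). mt-Co3 lay at 131, 67.3 and 42.6 and mt-Co2 at 123, 58.4 and 37.2. The order mt-Co1, mt-Co3, mt-Co2 held in all 3 libraries of both tables, and all 3 genes stood above mt-Atp6 in each.

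By the medians of the groups, ATP synthase and complex III came next, although single complex I mRNAs such as mt-Nd1 stood above mt-Cytb. mt-Atp6 lay at 58.3, 34.2 and 23.0, and the single complex III subunit mt-Cytb (ENSMUSG00000064370.1, 14145 to 15288), cytochrome b, at 41.0, 22.8 and 18.8. mt-Atp8 (ENSMUSG00000064356.3, 7766 to 7969), the second mitochondrial subunit of ATP synthase, lay at 35.1, 16.6 and 14.1. It shares 43 bases with mt-Atp6 on the same strand, so reads there fit both genes. The 3′ end of mt-Atp8 is shown with the part that is also the start of mt-Atp6 in capitals.
mt-Atp8, chrM:7907-7969, plus strand: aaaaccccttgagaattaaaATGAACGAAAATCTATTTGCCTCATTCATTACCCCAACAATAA

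Complex I is the largest group, with 7 mitochondrial subunits. mt-Nd1 (ENSMUSG00000064341.1, 2751 to 3707), which has no window in common with a nuclear transcript, lay at 47.3, 23.9 and 20.3. mt-Nd5 (ENSMUSG00000064367.1, 11742 to 13565) lay at 37.8, 27.0 and 21.9, mt-Nd4 (ENSMUSG00000064363.1, 10167 to 11544) at 34.7, 21.4 and 16.3, and mt-Nd2 (ENSMUSG00000064345.1, 3914 to 4951) at 21.7, 12.4 and 10.9. The short mt-Nd3 and mt-Nd4l lay at 29.0, 12.4 and 7.31 and at 22.8, 13.8 and 11.0. mt-Nd6 (ENSMUSG00000064368.1, 13552 to 14070), the only mRNA encoded on the minus strand, lay at 34.7, 29.4 and 29.4. The medians of the 7 complex I mRNAs were 34.7, 21.4 and 16.3, below the complex IV medians of 131, 67.3 and 42.6 in every library.

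Most neighbours in this order did not differ beyond their spread. The mean of mt-Co1 exceeded that of mt-Co3 by 121 against an SD of 120, and every other pair of neighbours differed by less than the larger of their SDs. Below mt-Atp6 the only neighbours whose order held in all 3 libraries were mt-Cytb above mt-Nd4 and mt-Atp8 above mt-Nd3. The replicates move together, so an order within each library can hold where means overlap: mt-Co1 was 7.13, 6.62 and 5.35 times mt-Nd1.

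**Figure D3:**
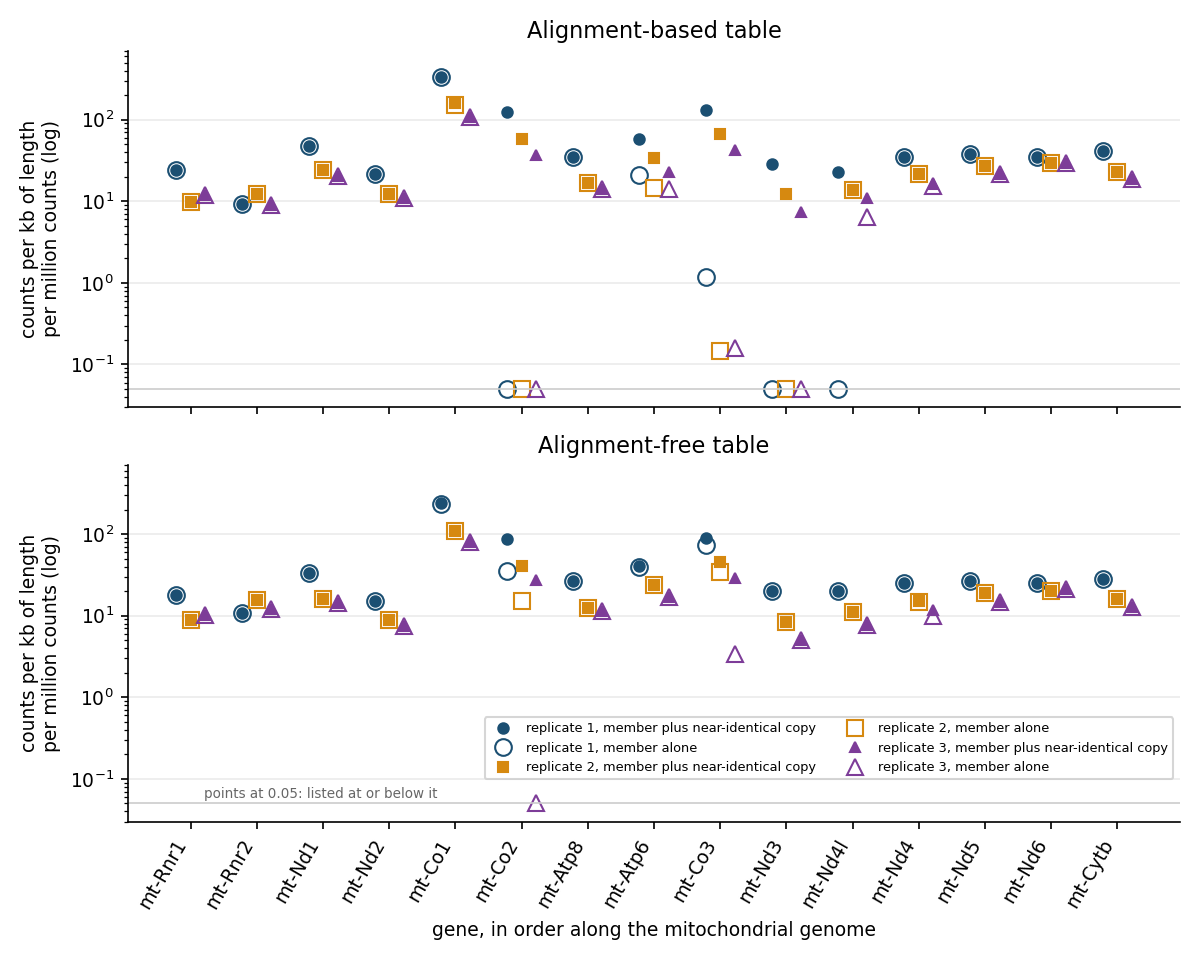
CPM per kilobase of length (log axis) of each mRNA and rRNA gene in genome order, in the alignment-based (upper) and alignment-free table (lower), with 1 symbol per replicate, open for the member alone and filled with its near-identical copy added. Points on the line at 0.05 are listed at or below it. Filled, mt-Co1 is highest in each library of both tables, and alone, mt-Co2 and mt-Nd3 lie on the line in the alignment-based table.

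In the alignment-based table the rRNA genes stood at the low end of this order. By alignment-free values mt-Rnr2 lay at 10.7, 15.7 and 12.1 CPM per kilobase and ranked 15, 9 and 9 in replicates 1, 2 and 3. Whether the ribosomal RNA depletion also covers mitochondrial rRNA is not given in the sources used here. mt-Rnr1 (ENSMUSG00000064337.1, 70 to 1024), the rRNA of the small ribosomal subunit, had 291, 170 and 205 counts and lay at 24.0, 9.74 and 11.9 CPM per kilobase. mt-Rnr2 (ENSMUSG00000064339.1, 1094 to 2675), that of the large subunit, had 184, 359 and 255 counts and lay at 9.16, 12.4 and 8.91. Their ratio was 2.62, 0.784 and 1.33 in replicates 1, 2 and 3, so neither was the higher in all libraries. Per kilobase, the 13 mRNAs together exceeded the rRNAs 6.08-fold, 4.06-fold and 3.33-fold in the alignment-based table and 4.71-fold, 2.46-fold and 2.10-fold in the alignment-free table, each time most in replicate 1.

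The tRNA genes could not be measured with the alignment-based table. All 22 are 59 to 75 bases long, shorter than the 250 to 400 size range of the libraries, and that table gives each of them an effective length of 0 and a count of 0. The alignment-free table gave effective lengths of 13.0 to 17.1 bases. There 7 of the 22 had 0 counts in every library, 4 had a count above 0 in every library and none reached 10. Those 4 were mt-Ts1 (serine) with 4, 7 and 8 counts, mt-Te (glutamate) with 4, 3 and 3, mt-Tp (proline) with 8, 3 and 4, and mt-Tc (cysteine) with 2, 1 and 4. A TPM of up to 29.2 in the alignment-free table rested on at most 8 counts, so these TPM values cannot be set beside those of mRNAs.

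All 4 of these tRNA genes are encoded on the minus strand of the mitochondrial genome. They are printed in full because their counts recurred in every library.
mt-Ts1, chrM:6870-6938, minus strand: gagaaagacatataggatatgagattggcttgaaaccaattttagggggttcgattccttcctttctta
mt-Te, chrM:14071-14139, minus strand: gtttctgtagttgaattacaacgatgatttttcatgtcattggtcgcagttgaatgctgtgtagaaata
mt-Tp, chrM:15356-15422, minus strand: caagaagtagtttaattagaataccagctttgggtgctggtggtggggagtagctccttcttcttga
mt-Tc, chrM:5192-5257, minus strand: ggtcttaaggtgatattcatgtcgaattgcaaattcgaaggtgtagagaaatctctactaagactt

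The 8 minus-strand tRNA genes held 22 of 25, 17 of 20 and 19 of 24 tRNA counts, or 88%, 85% and 79.2%, and the 14 plus-strand genes held 3, 3 and 5. The strand setting used in counting is not given, so these counts cannot be assigned to a strand. mt-Ts1 overlaps mt-Co1 by 3 bases on opposite strands, and mt-Nd6 overlaps mt-Nd5 by 14, so the values of these pairs are uncertain in the same way. Over its whole length, the counts of the minus-strand mt-Nd6 cannot be assigned to a strand either.

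**Figure D4:**
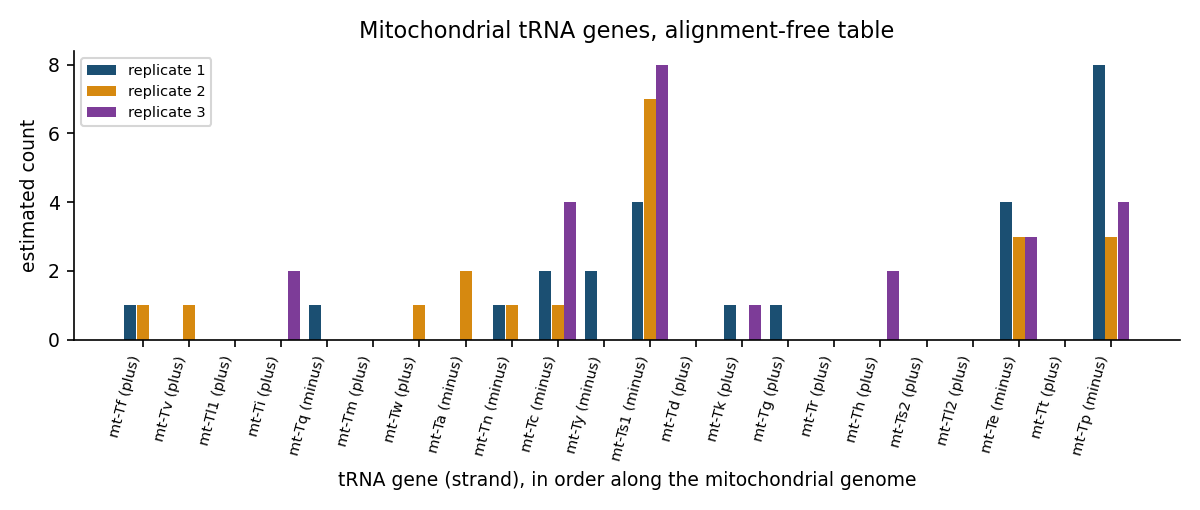
Estimated counts of the 22 mitochondrial tRNA genes in the alignment-free table (vertical axis), with 1 bar per replicate, in genome order and with the strand in parentheses. No gene exceeds 8 counts, and the genes with counts in every library are the minus-strand mt-Tc, mt-Ts1, mt-Te and mt-Tp.

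To place the members among nuclear genes, each level was set against the reference gene, the median of 8758 expressed protein-coding genes of the nucleus (mean TPM from 1 upwards), which lay at TPM 7.56, 6.63 and 6.56. limma's treat method on log2(TPM + 0.1) tested whether a gene lay more than 2-fold away, and p was adjusted by Benjamini-Hochberg over all 18399 genes, of which 15.1% were called higher and 52.4% lower. All genes but the members needed a mean TPM of at least 0.1 to be tested, so the members at 0, mt-Co2, mt-Nd3 and the tRNA genes, are no fair match for the share of all genes called lower. Of the 13 mRNAs 8 were called higher and 3 lower. mt-Co1, with a TPM of 357, 145 and 109, lay 4.67 ± 0.30 log2 units above the reference (SE; limma adjusted p = 0.00030, above in 3 of 3 libraries) and exceeded 98.3% of 8757 expressed nuclear protein-coding genes. mt-Nd6, at 54.0, 44.7 and 45.3, lay 2.77 ± 0.11 above (limma adjusted p = 0.00013), and mt-Nd1, at 55.9, 25.8 and 22.9, lay 2.20 ± 0.23 above (limma adjusted p = 0.0030). The other mRNAs called higher were mt-Atp8, mt-Atp6, mt-Nd4, mt-Nd5 and mt-Cytb. A 4-fold band left 3 of these calls (mt-Co1, mt-Atp8 and mt-Nd6), as did a reference taken over genes with a TPM of 5 or more. The call of mt-Nd4 was also lost in the alignment-free table (1.35 log2 units) and without replicate 1 (1.41). The median of all 13 was 1.73, against -1.74 for all genes tested. All these levels are of chromatin-fraction RNA only, while mitochondrial RNA resides outside the nucleus in cells. How the fractionation bears on these differences was not tested.

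The 3 mRNAs called lower, mt-Co2, mt-Co3 and mt-Nd3, were those whose reads that table gave to a pseudogene. By the alignment-free values, 8 mRNAs were higher and 0 lower, beside 16.4% and 48.2% of 28497 genes. With pairs summed, 12 of 13 were higher in the alignment-based table (15.1% of all genes) and 11 of 13 in the alignment-free table, and none was lower. mt-Nd2 was the one mRNA called in neither table, at 1.18 (limma adjusted p = 0.28). The rRNA genes were called in neither direction, with mt-Rnr1 at 1.19 (limma adjusted p = 0.33) and mt-Rnr2 at 0.54 (limma adjusted p = 1). The 22 tRNA genes were called lower in the alignment-based table, which with an effective length of 0 is not a level, and 14 of them in the alignment-free table.

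The level of mt-Atp8 differed with the scale. Its TPM of 229, 124 and 101 stood below only that of mt-Co1 among members in the alignment-based table, 4.34 log2 units above the reference gene. That table gave its 91, 62 and 52 counts an effective length of 28.7, 21.9 and 24.3 bases, out of 204. In counts per kilobase of annotated length mt-Atp8 ranked 10 among the 15 mRNA and rRNA genes and lay 1.87 log2 units above the reference, still called higher. Its alignment-free TPM was 120, 36.8 and 40.5.

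Between replicates, the mRNAs were highest in replicate 1 and most were lowest in replicate 3. On TMM-scaled log2 CPM all 9 mRNAs that passed the count filter were highest in replicate 1, as were 36.2% of all 12927 genes. Of the 9, 8 were also lowest in replicate 3, which held for 11.9% of all genes. The mRNAs share the same 3 libraries and are not independent replicates, so these counts only describe a difference between libraries. Summed with their pseudogenes, all 13 were highest in replicate 1 and 12 lowest in replicate 3. The exception both times was mt-Nd6, whose reads cannot be assigned to a strand. Its SD was 0.053, the lowest of the mRNAs, against 0.74 for mt-Co1. On total counts mt-Nd6 lay at 29.4 CPM per kilobase in both replicates 2 and 3. The median mRNA lay 0.96 log2 units higher in replicate 1 than in replicate 3. Of all genes 249 (1.93%) differed by at least 1 in that direction, a limit that the median mRNA did not reach. Of the 9 mRNAs, mt-Co1, mt-Atp8, mt-Nd1 and mt-Nd4 reached it and the others did not.

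The median SD of the mRNAs was 0.50 log2 units, against 0.27 for all genes, and 0.55 against 0.26 in the alignment-free table. Without replicate 1 the median SD of the mRNAs was 0.16, below the 0.20 of all genes. The rRNAs did not share one order: mt-Rnr1 was highest in replicate 1 (SD 0.60) and mt-Rnr2 in replicate 2 (SD 0.30). Amount of RNA and library cannot be told apart, as each amount was used once. The library from 1 µg had the highest mRNA values and that from 500 ng the lowest. The mRNA share of replicate 1 was 1.93 times that of replicate 2 and 2.54 times that of replicate 3. With near-identical copies summed these ratios were 1.93 and 2.68. With nuclear rRNA genes and their surroundings left out of the totals the shares of the members alone were 0.0918%, 0.0530% and 0.0389%.

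**Figure D5:**
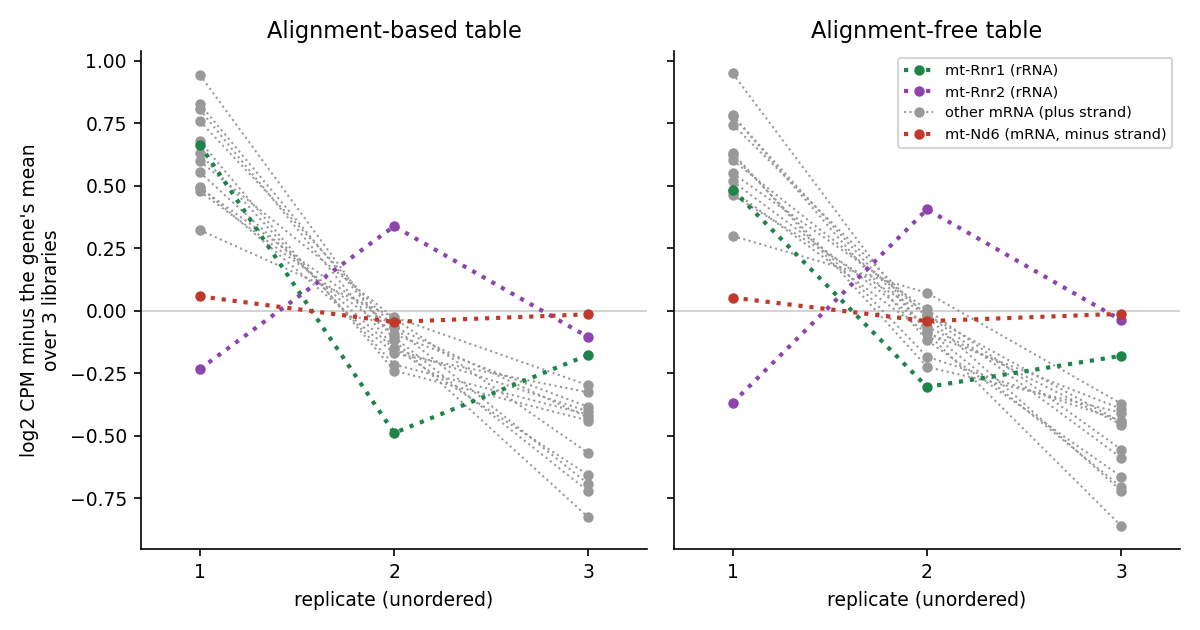
Log2 CPM of each mRNA and rRNA gene minus its mean over the 3 libraries (vertical axis), mRNAs summed with their near-identical copy, in the alignment-based (left) and alignment-free table (right). Dotted lines join the values of a gene, and replicates have no order. All 13 mRNAs are highest in replicate 1, mt-Nd6 (red) by little, and mt-Rnr2 is highest in replicate 2.

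In this chromatin-fraction RNA, nuclear genes of the respiratory chain and of the mitochondrial ribosome had lower medians than the mitochondrial mRNAs. In the alignment-based level test, 79 of 86 nuclear genes of the respiratory chain and ATP synthase were tested, and 3 were called higher, 46 lower and 30 neither, with a median of -1.86. Of 77 mitochondrial ribosome genes tested 2 were higher and 54 lower, with a median of -2.63. The median of all genes was -1.74, and 15.1% were higher and 52.4% lower. In the alignment-free table the medians of these lists were -0.69 and -1.18, against -1.43 for all genes, so the tables differ on whether they stood below or above the typical gene tested.

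The genes that transcribe, process and maintain the mitochondrial genome were seldom called higher. Of 41 such genes 1 was higher, 21 lower and 19 neither in the alignment-based table, with a median of -1.89. The share called lower is near the 52.4% of all genes, so it is not a result about these genes. By the alignment-free values, 4 were higher and 19 lower, beside 16.4% and 48.2% of all genes, with a median of -0.70. The highest in the alignment-based table was Polg, the catalytic subunit of the mitochondrial DNA polymerase, with a TPM of 23.9, 32.2 and 27.6, which lay 1.99 ± 0.16 above the reference gene (SE; limma adjusted p = 0.0013, above in 3 of 3 libraries). Fastk, which acts on mt-Nd6 RNA, followed at a mean TPM of 14.3 and the tRNA-modifying Mto1 at 12.8, neither called in that table. By alignment-free values Mterf3 (mean TPM 62.4) and Tbrg4 (36.9), named after their values were seen, stood above Polg (25.6), and these 3 and Mto1 (18.5) were called higher. In the alignment-based table the mean TPM of the genes called lower ran from 0.193 to 1.96. Among them were the transcription factors Tfam, at 0.51, 1.10 and 0.40, and Tfb2m, the elongation factor Tefm, the helicase gene Twnk, and Elac2, Trmt10c and Hsd17b10, which free the tRNAs from the precursor. The rest were Fastkd1, Fastkd3, Fastkd5, Slirp, Tfb1m, Mterf1a, Mterf1b, Mterf2, Mterf4, Mgme1, Mrm1, Mrm3, Gtpbp3 and Top1mt. Some of these calls rest on few counts, such as 9.17, 1 and 1 for Slirp, 1, 4 and 3 for Mterf2 and 7, 4 and 8 for Mrm3. Polrmt, the mitochondrial RNA polymerase, lay at 3.22 ± 0.760 (SD, n = 3) and was not called in that table (limma adjusted p = 0.43), but was called lower in the alignment-free table at a mean TPM of 2.13. Of the genes listed as lower, Tfb1m, Tfb2m and Fastkd1 were called in neither direction in the alignment-free table.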

How the data were processed

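For each library the authors deposited an alignment-based gene table with expected counts and TPM and an alignment-free transcript table with estimated counts and TPM, which was summed per gene. Per the deposited notes, both refer to mm10 and GENCODE M21, the former derived from alignments to the transcriptome and the latter from the reads. Programs, read length and treatment of strand are not stated in the labels or headers. Columns are laid out as RSEM and kallisto write them. The expected counts deposited by the authors divide reads that match several transcripts and were rounded before count-based tests. The authors' TPM rests on an effective length, so short genes gain a high value from few reads. The effective lengths and the posterior mean and standard deviation of each count were used as deposited.

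Tables were compared with edgeR 4.0.16 (R 4.3.3; TMM, filterByExpr with a minimum count of 10, glmQLFTest, library as block). Levels were tested with limma 3.58.1 (treat, trended prior, band of 2-fold) on log2(TPM + 0.1), in which differences of genes near 0 are understated. All p-values were adjusted over all genes tested. Spread was the SD of log2 CPM (prior count 2). Nuclear copies were annotated transcripts aligning to a member with blastn 2.17.0 at 90% identity or more over at least 100 bases, near-identical from 99%. Shares are of the sum of all table rows, with exact Clopper-Pearson 95% intervals. A count of 0 allows 3 counts, and intervals and floors cover counting error only. On simulated data for 18470 genes, the comparison of tables called 50 of 100 genes changed 2-fold, which lie at the limit, 100 of 100 changed 4-fold and 0 others. The level test, run on 17792 genes made in the same way, called 9842 of 9842 beyond 4-fold and 9 of 4110 within the band. Alternatives covered scaling (with DESeq2 1.42.0 among the tools), filters, fold limits, pseudocount, reference genes, denominators and leaving out each replicate.

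The members and lists were chosen with earlier results of these data known. All members could be named, nuclear copies with at least 100 counts in any library and the 5 with the highest mean count, and, of the machinery list, the 3 highest by mean TPM and any called lower. Polrmt, Mterf3 and Tbrg4, and the copies Gm10222 and Gm28439, which complete the block of pseudogenes, were named after their values were seen where the rule did not cover them.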

Additional observations from a re-analysis of the deposited data

How the results depend on the processing

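Of the 14 members compared between tables, 2 were called higher and 0 lower, beside 8574 of 20964 genes called in either direction. Without the fold limit 4 were higher and 9 lower, beside 16678 of 20964 genes. Without the count filter 7 of 30 members tested were higher, beside 12751 of 33736 genes. With a minimum count of 50 it was 0 of 12, beside 4634 of 14050. With limma on log2(TPM + 0.1) 7 of 37 were higher and 1 lower, beside 13312 of 27560. Leaving out a replicate gave 2 to 3 higher and 0 lower. Beside them stood 9491 of 22186 genes without replicate 1, 8961 of 21362 without replicate 2 and 8760 of 21329 without replicate 3. With members and near-identical copies summed, an alternative chosen after the data were seen, 0 were higher, and mt-Atp6 turned to -0.74, mt-Co3 to -0.79, mt-Nd3 to -0.79 and mt-Nd4l to -0.55. mt-Nd4l also turned to -0.29 without replicate 1 and lay at 1.56 without replicate 2. The tables were paired by library. Without the library as a block (no replicate block) 2 members were higher and 0 lower, beside 8422 of 20964 genes called in either direction.

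Against the reference gene 8 members were called higher and 25 lower, 22 of the latter tRNA genes. A 4-fold band left 3 higher, and a reference over genes with a TPM of 5 or more also 3. Against the latter mt-Rnr1 lay at -0.0037, mt-Rnr2 at -0.66 and mt-Nd2 at -0.016. Testing genes from a mean TPM of 1 upwards left 0 lower (fewer members were then tested). By alignment-free values 14 were lower, with or without copies summed, all of them tRNA genes with few or no counts. Leaving out each replicate gave 8 higher and 25 lower. mt-Nd4l turned to 0.30 with a pseudocount of 1, 0.39 with reference genes from a TPM of 0.1 and 2.10 without replicate 1, and lay at -2.34 without replicate 2. In the alignment-free table mt-Co3 turned to 1.97, mt-Nd3 to 1.47 and mt-Nd4l to 2.01. Summed with their copies, mt-Co2 turned to 3.58, mt-Co3 to 3.65, mt-Nd3 to 2.24 and mt-Nd4l to 2.71 in the alignment-based table, and to 3.20, 3.21, 1.47 and 2.01 in the alignment-free table.

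The median SD of the mRNAs was 0.50, and 0.157 to 0.682 with a replicate left out. The mRNA share, 0.0503% on average, was 0.0807% of nuclear protein-coding counts and 0.0360% to 0.0599% with a replicate left out. With near-identical copies summed it was 0.0644%. The rRNA share, 0.00306%, was 0.00494% of nuclear protein-coding counts, 0.00376% without rRNA genes and their surroundings, and 0.00272% to 0.00332% with a replicate left out. The tRNA share was 0 in the alignment-based table, also with a replicate left out, and 8.94e-05% in the alignment-free table. The mean count in nuclear copies, 2130, ran from 1719 to 2562 with a replicate left out. The cause of these differences was not tested. None of the tRNA genes reached 10 counts.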
